A study of Homo sapiens with 10 samples.

Results

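The Kruppel-like factors examined here were 10 zinc finger transcription factors, KLF2, KLF4, KLF5, KLF6, KLF7, KLF9, KLF10, KLF11, KLF12 and KLF13. They were taken by name, with every probe annotated to them and no filter on measured values, but with earlier results of these data known. Each had 1 probe, so that they made up 10 of the 16372 named genes and 10 of the 24105 probes analysed. RNA levels had been measured on Illumina Human-8 V1 bead arrays in MDA-MB-435 cells, a human line labelled as melanoma. The groups were cells transduced with integrin beta-4 (ITGB4), the integrin chain of hemidesmosomes, and cells treated with hepatocyte growth factor (HGF), the ligand of the MET receptor, for 1 h, 6 h or 24 h. They were set against untreated cells, and each of the 5 groups had 2 arrays, called biological duplicates in the series design text. All groups shared the same cell line and standard growth conditions, and the untreated cells stand for both designs. The labels give no HGF dose, no empty-vector control for the transduction and no untreated cells matched to each HGF time.

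Kruppel-like factors carry zinc fingers at their C-terminal end that bind GC-rich and CACCC-type DNA elements, and they differ in the N-terminal parts that recruit partner proteins. KLF2, KLF4, KLF5, KLF6 and KLF7 are mostly described as activators, KLF9, KLF10, KLF11 and KLF13 bind the corepressor scaffold SIN3A, which carries histone deacetylases, and KLF12 belongs with KLF3 and KLF8 to the factors that recruit the corepressor CtBP. Several of the genes are known to respond quickly to growth factors, serum, hormones or shear stress, and their products act on proliferation, cell cycle arrest and differentiation.

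Signals are given after quantile normalisation, in arbitrary units with a detection limit of 89.6, taken as the lowest signal detected on an array and then the median of the 10 arrays. A probe counted as detected on an array at a detection score of 0.99 or more, and it was tested if it was detected on at least 1 of the 10 arrays, which held for 14018 probes. KLF2, KLF6, KLF9, KLF10 and KLF13 were detected on all 10 arrays, KLF4 on 3 and KLF7 on 1, so that 7 of the 10 members were tested. KLF5, KLF11 and KLF12 were detected on 0 of 10 arrays, and nothing is said about their RNA beyond that. In bulk RNA, fewer cells that express a gene and less of its RNA per cell cannot be told apart.

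An array detected 42.4% to 49.4% of the probes, each read by 26 to 32 beads in the median, and replicates correlated at 0.976 to 0.989 across probes. Replicate 1 of the untreated cells and of each HGF time had low detection scores among the dim probes (25th percentile 0.00814 to 0.0225), whereas replicate 2 of these groups and both ITGB4 arrays had higher ones (0.249 to 0.388), and differences are given within each class where it matters. ITGB4 itself read 6788.1 and 5022.9 in the transduced cells, against 59.6 to 63.9 on the other 8 arrays, where it was not detected. Of 9 melanocyte lineage markers, 8 were on the array and 7 of these were detected on every array, among them SOX10 at 2732.8 to 4027.1 and TYRP1 at 6886.3 to 11347. The epithelial markers CDH1, EPCAM and KRT19 and the fibroblast markers COL1A1, COL1A2 and COL3A1 were detected on 0 of 10 arrays, whereas KRT18 (318.3 to 569.5), KRT14 and ESRP1 of the epithelial list, DCN (214.5 to 283.6) and LUM (277.8 to 688.2) of the fibroblast list and the endothelial marker KDR were detected on all 10.

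**Figure D1:**
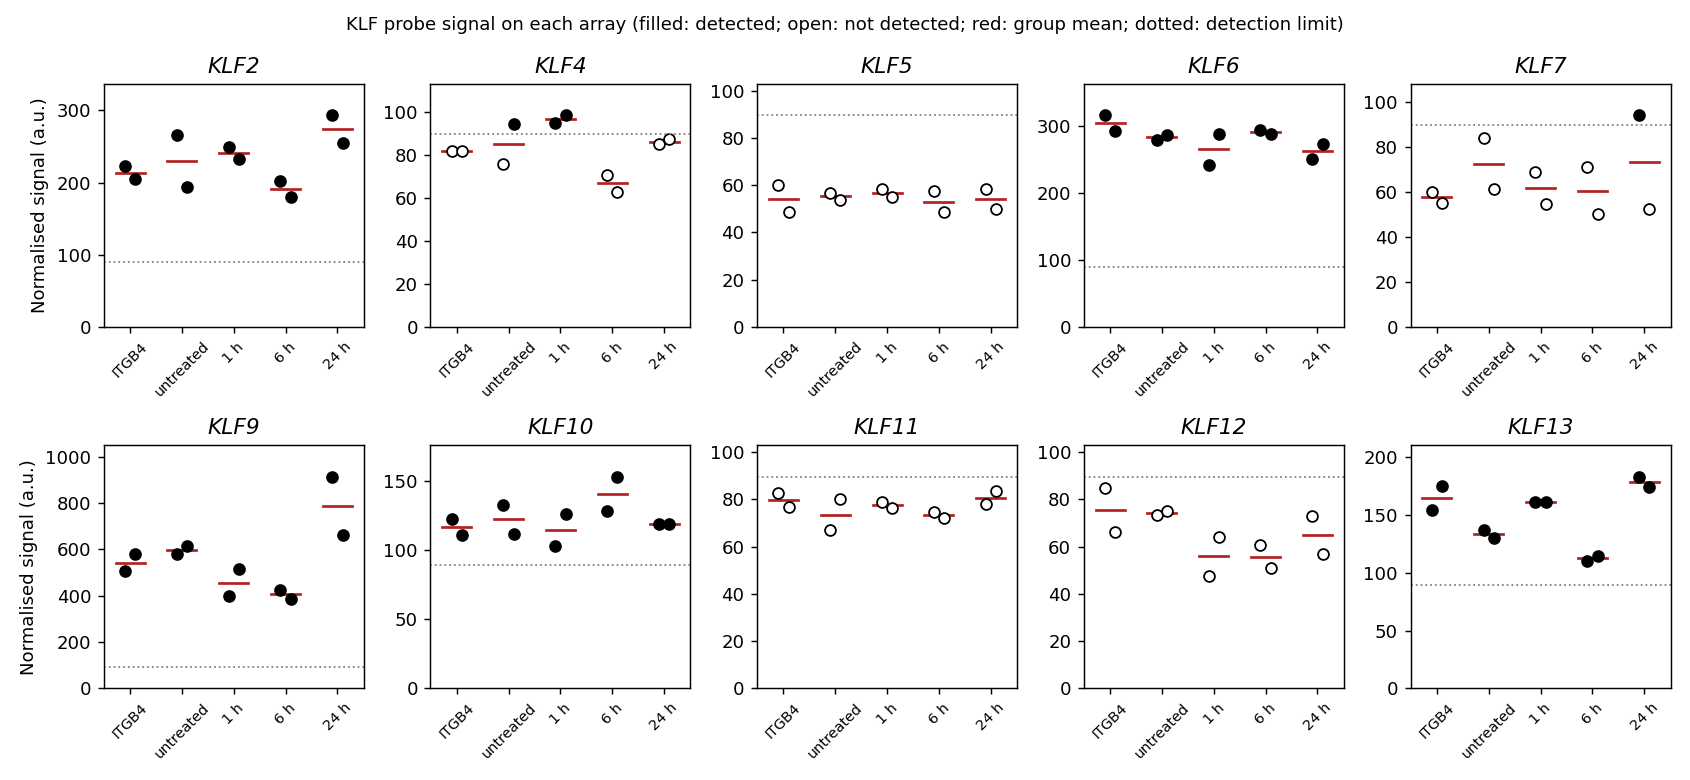
Normalised signal of the 10 Kruppel-like factor probes (vertical linear axes from 0, arbitrary units, scaled per gene) by group, with 1 point per array, filled where detected, and the group mean as a red bar. KLF9 lay between 383.7 at HGF 6 h and 912.7 at HGF 24 h, while KLF5, KLF11 and KLF12 stayed below the detection limit of 89.6, the dotted line.

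Among the SIN3A-binding members, KLF9 and KLF13 were higher at 24 h than at 6 h of HGF, and they were the only 2 of the 7 tested members past the threshold in any of the 6 comparisons, which were ITGB4 and each HGF time against untreated cells, 6 h against 1 h, and 24 h against 6 h. Benjamini-Hochberg adjusted p-values under 0.05 from limma, over all 14018 probes, were taken as calls, and in this comparison 8.31% of all probes were called, 4.24% as higher and 4.07% as lower at 24 h. When arrays were centred on their median without quantile normalisation, 65.6% in place of 51% of the called probes were higher at 24 h. This fit had no block for the score class of the arrays. With such a block KLF4 and KLF13 also passed at 6 h against 1 h, and KLF2 at 24 h against 6 h. The p-values measure the spread between these arrays only.

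KLF9 is a hormone-responsive member, induced by glucocorticoids and thyroid hormone and described as a repressor in many settings. Its signal was 506.3 and 577.5 in ITGB4 cells, and over the HGF course 580.7 and 615 in untreated cells, 397.7 and 514.3 at 1 h, 425.4 and 383.7 at 6 h, and 912.7 and 662.6 at 24 h. Both 24 h arrays lay above all other arrays and both 6 h arrays below all untreated and ITGB4 arrays, while 1 h and 6 h overlapped. KLF9 was 1.92-fold higher at 24 h than at 6 h, a log2 difference of 0.94 ± 0.19 (SE, 95% interval 0.53 to 1.36, limma adjusted p = 0.0097). The difference was 1.1 within the arrays with low detection scores and 0.79 within those with higher scores. The call was lost without replicate 2 of HGF 6 h (0.87, adjusted p = 0.084), without replicate 1 of HGF 24 h (0.71, 0.055), in the authors' rank-invariant value table (1, 0.077), and with an ordinary pooled-variance test (0.097).

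Against untreated cells KLF9 gave values of opposite sign early and late in the course, and none of them passed the threshold after adjustment. The log2 difference was -0.40 ± 0.19 at 1 h (95% interval -0.82 to 0.01, limma adjusted p = 0.38), -0.56 ± 0.19 at 6 h (-0.98 to -0.15, 0.15) and 0.38 ± 0.19 at 24 h (-0.03 to 0.79, 0.86). The 24 h value was 0.65 within the low-score arrays and 0.11 within the others. In mean level the order was HGF 24 h, untreated, ITGB4, HGF 1 h and HGF 6 h, and neighbours in that order that were tested, 24 h against untreated, ITGB4 against untreated (-0.14 ± 0.19) and 6 h against 1 h (-0.16 ± 0.19), did not pass the threshold. ITGB4 and 1 h arrays overlapped.

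KLF13, known from T lymphocytes as a regulator of the chemokine gene CCL5, read 154.3 and 175.7 in ITGB4 cells, and 137.3 and 130.1 in untreated cells, 161.1 and 161.6 at 1 h, 110.4 and 115 at 6 h, and 183.3 and 174.4 at 24 h of HGF. The 6 h arrays were the lowest of all 10, the untreated arrays came next, and no HGF group overlapped untreated cells or another HGF group. KLF13 was 1.59-fold higher at 24 h than at 6 h, a log2 difference of 0.67 ± 0.15 (SE, 95% interval 0.34 to 0.99, limma adjusted p = 0.017), with 0.73 within the low-score arrays and 0.60 within the others. Over all alternative settings the difference ran from 0.60 to 1.2. The KLF13 probe was read by 14 to 27 beads per array, with 14 on replicate 1 of HGF 24 h. The call was lost without replicate 1 of HGF 6 h (0.64, adjusted p = 0.11), without replicate 2 of HGF 6 h (0.70, 0.088) and without replicate 1 of HGF 24 h (0.63, 0.059).

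The earlier step of KLF13 lay on the other side of 0, with -0.52 ± 0.15 at 6 h against 1 h (95% interval -0.84 to -0.19, limma adjusted p = 0.068), -0.55 within the low-score arrays and -0.49 within the others. With the score class of the arrays as a block it passed the threshold (adjusted p = 0.023). Against untreated cells the differences were 0.27 ± 0.15 at 1 h (-0.05 to 0.60, 0.46), -0.25 ± 0.15 at 6 h (adjusted p = 0.49), 0.42 ± 0.15 at 24 h (0.09 to 0.75, 0.86) and 0.30 ± 0.15 in ITGB4 cells (-0.03 to 0.63, adjusted p = 1). In mean level the order was HGF 24 h, ITGB4, HGF 1 h, untreated and HGF 6 h, and ITGB4 overlapped with both of its neighbours.

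KLF10, induced early by transforming growth factor beta, moved within a narrow range close to the detection limit and passed no test. It read 122.7 and 110.7 in ITGB4 cells, and 132.7 and 111.9 in untreated cells, 103.3 and 126.1 at 1 h, 128.5 and 153.2 at 6 h, and 118.9 on both arrays at 24 h of HGF. Every group overlapped with untreated cells, and only the 6 h arrays lay above both 1 h and both 24 h arrays. Its log2 difference was 0.30 ± 0.17 at 6 h against 1 h (95% interval -0.07 to 0.67, adjusted p = 0.37) and -0.24 ± 0.17 at 24 h against 6 h (-0.61 to 0.13, 0.52), opposite in sign to KLF9 and KLF13 in both steps. In the first of these steps KLF9 was at -0.16 with overlapping arrays, and at 0.10 within the low-score arrays and -0.42 within the others. The 6 h difference of KLF10 from untreated cells was -0.05 within the low-score arrays and 0.45 within the others. KLF11, the other transforming growth factor beta inducible member, ran from 67.1 to 83.4 with a median of 77.5 and was not detected.

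**Figure D2:**
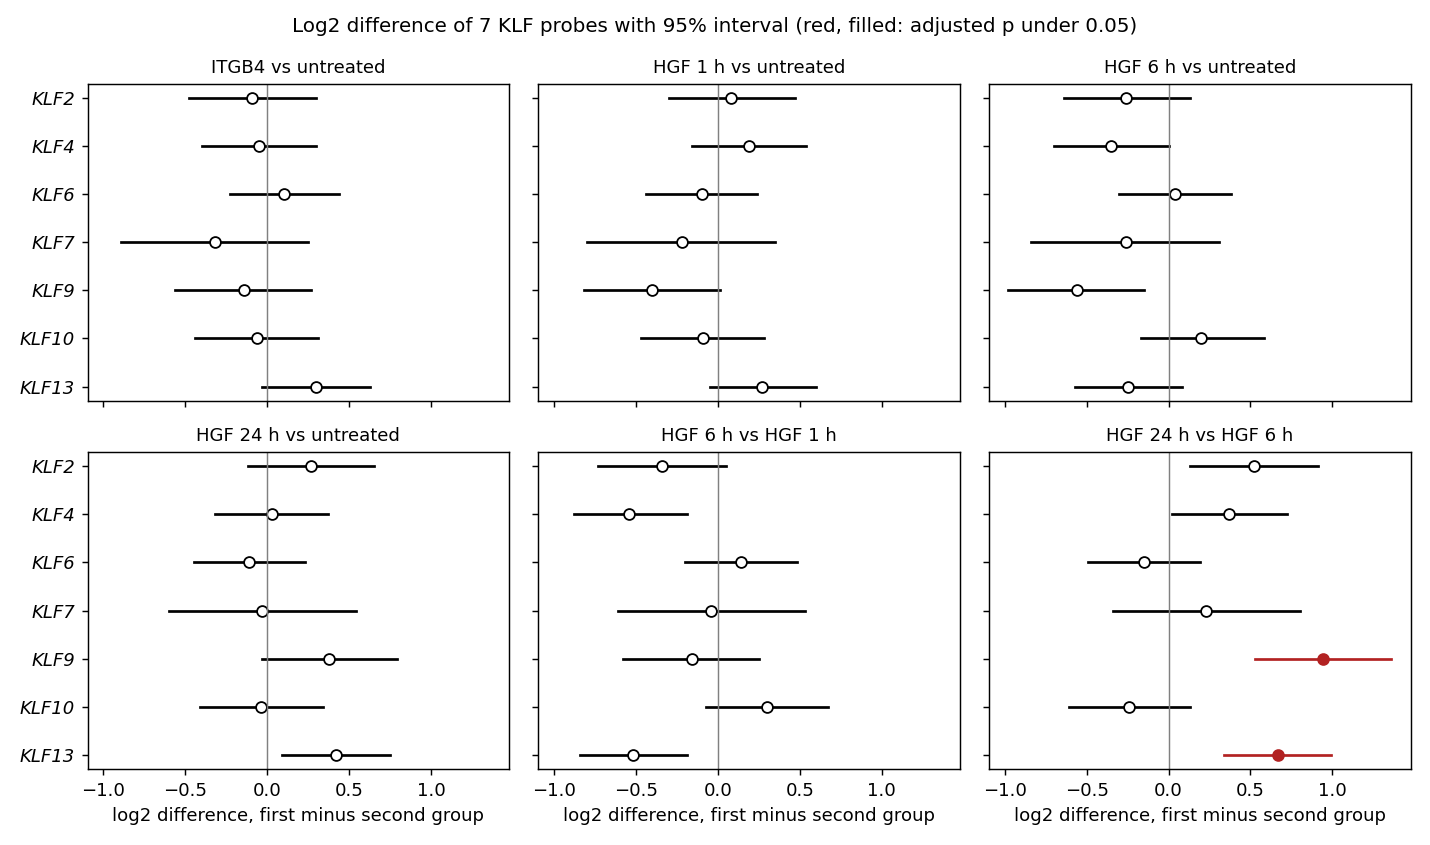
Log2 differences of the 7 tested Kruppel-like factors in the 6 comparisons, with 95% intervals from limma and filled points for adjusted p under 0.05. Only KLF9 (0.94) and KLF13 (0.67) at HGF 24 h against 6 h are filled, and the KLF2 value in that comparison (0.52) lies beside them with an adjusted p of 0.099.

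Among the activator members, KLF2, which ERK5 and MEF2 factors control in endothelial cells, had its highest group mean at 24 h and its lowest at 6 h, without passing the threshold. It read 222.5 and 204.8 in ITGB4 cells, and 265.3 and 194.4 in untreated cells, 249.7 and 232 at 1 h, 201.8 and 179.4 at 6 h, and 293.1 and 254.6 at 24 h of HGF. Both 24 h arrays lay above both 6 h and both 1 h arrays, and the untreated pair spread over most of the range. The log2 difference was 0.52 ± 0.18 at 24 h against 6 h (95% interval 0.13 to 0.91, limma adjusted p = 0.099), 0.54 within the low-score arrays and 0.50 within the others, and it passed with the score class as a block (adjusted p = 0.02). The value was -0.34 ± 0.18 at 6 h against 1 h (-0.73 to 0.05, 0.32).

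KLF4, a factor of growth arrest and epithelial differentiation that is also used in reprogramming, was at the edge of detection. It read 81.9 and 81.8 in ITGB4 cells, and 75.8 and 94.4 in untreated cells, 94.8 and 98.3 at 1 h, 70.5 and 62.8 at 6 h, and 84.8 and 87.4 at 24 h of HGF. It was detected on both 1 h arrays and untreated replicate 2, and on none of the 6 h, 24 h and ITGB4 arrays. The 6 h level was at least 1.06-fold lower than at 1 h, a bound set by the detection limit, with a fitted log2 difference of -0.54 ± 0.16 (95% interval -0.88 to -0.19, adjusted p = 0.075) that was -0.43 within the low-score arrays and -0.65 within the others. With the score class as a block it passed the threshold (adjusted p = 0.026), and with signals floored at the detection limit it was -0.11 (0.26). At 24 h and at 6 h it was below detection on all arrays, and no fold is given between these times.

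KLF6, a factor described as a tumour suppressor that can act on the CDKN1A promoter, varied least in group mean among the tested members. It read 316.5 and 293.2 in ITGB4 cells, and 280 and 287.4 in untreated cells, 242.5 and 288.6 at 1 h, 294.5 and 288.5 at 6 h, and 251.6 and 273.7 at 24 h of HGF. Its 5 group means spanned 0.22 on the log2 scale, against 0.94 for KLF9 and 0.67 for KLF13. The log2 difference was 0.04 ± 0.16 at 6 h against untreated cells (95% interval -0.30 to 0.38). KLF7, best known from neurons, was detected on HGF 24 h replicate 1 alone (94.1), its other 9 arrays ran from 50.2 to 84, and no comparison of it passed. KLF5, a factor of proliferating epithelia, ran from 48.5 to 59.9 and was not detected.

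KLF12, the CtBP-binding member, was represented by a probe specific for 1 isoform, and its 10 values were all below the detection limit. They were 84.7 and 66.3 in ITGB4 cells, and 73.3 and 75.1 in untreated cells, 47.7 and 64 at 1 h, 60.6 and 51 at 6 h, and 72.9 and 56.7 at 24 h of HGF. It was not tested, and other isoforms are outside what this probe reads.

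**Figure D3:**
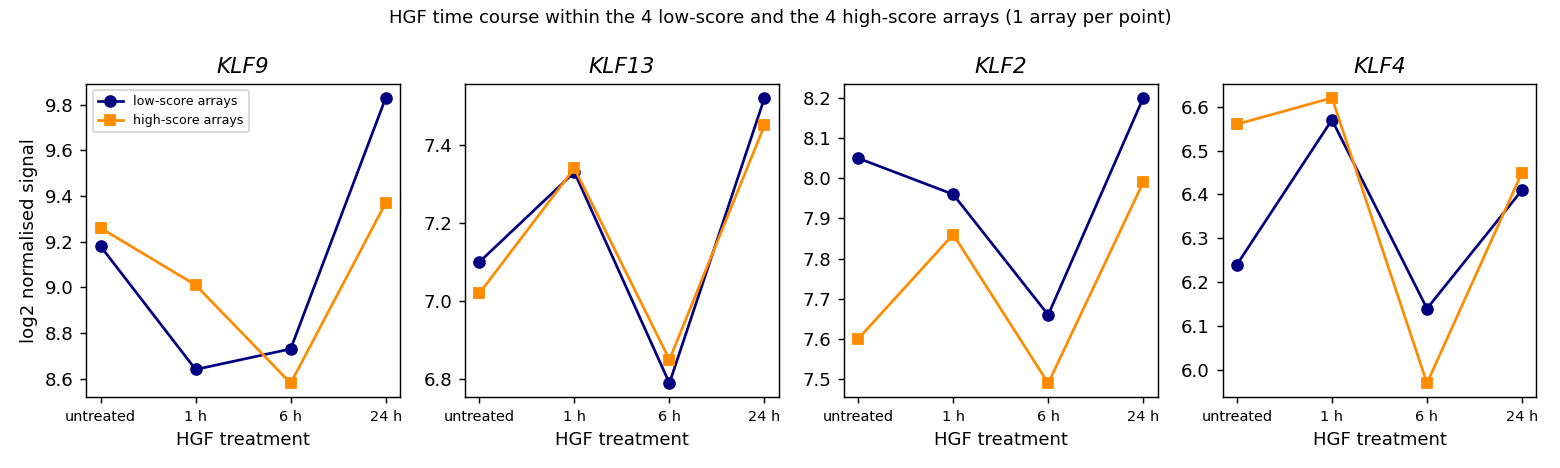
Log2 normalised signal of KLF9, KLF13, KLF2 and KLF4 (vertical axes, scaled per gene and not starting at 0) in untreated cells and along the HGF course, with 1 array per point and 1 line each for the arrays with low and with higher detection scores. From 6 h to 24 h both lines ran upwards for KLF9, by 1.1 and 0.79, and for KLF13, by 0.73 and 0.60, while all 6 h and 24 h points of KLF4 were below detection.

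Over all 7 tested members, the comparison of 24 h with 6 h was the one with the largest median shift. The median log2 difference was 0.37, against 0 over all probes, with 5 members above 0 and 2, KLF6 and KLF10, below. Arrays of the 2 groups did not overlap for 6 of the 7 members, against 42.8% of all probes, and 4 were under an unadjusted p of 0.05, against 21.3%. These figures include KLF4, whose value is the median and which was below detection on all 4 arrays, and KLF7, below detection on all but 1. For the 5 members detected on all 10 arrays the median was 0.52, with 3 above 0 and 2 below, 5 did not overlap and 3 were under the unadjusted limit. At 6 h against 1 h the median was -0.16, against -0.01 over all probes, 4 members did not overlap (48.5% of all probes), and 0 of 7 were called by limma against 4.67% of all probes (2.24% higher and 2.43% lower), with 2 members and 20.5% of all probes under an unadjusted p of 0.05. These comparisons share the 6 h arrays.

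Against untreated cells, 0 of the 7 tested members were called by limma at any HGF time, and likewise with an ordinary pooled-variance test. At 1 h the share of all probes called was 0% (0 of 14018), and 0 members were under an unadjusted p of 0.05, against 13.5% of all probes, while 3 members did not overlap with untreated cells (44.2% of all probes). At 6 h 1.9% of all probes were called (0.97% higher and 0.935% lower). Under the unadjusted limit was 1 member, KLF9 (limma adjusted p = 0.15), against 16% of all probes, 4 members did not overlap (44.6% of all probes), and the median of the members was -0.26, against 0.01 over all probes. At 24 h the share called was 0%, and 1 member, KLF13 (limma adjusted p = 0.86), was under the unadjusted limit, against 5.71% of all probes, while 3 did not overlap (29.6% of all probes). The 3 HGF comparisons use the same untreated arrays.

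In ITGB4 cells against untreated cells the members showed 0 calls of 7, with 0 under an unadjusted p of 0.05, against 0.00713% and 0.835% of all probes. Arrays did not overlap for 4 members, against 25.7% of all probes. The median of the members was -0.06, against 0 over all probes. The 95% intervals reach up to 0.63 for KLF13 and down to -0.89 for KLF7. Among the members detected on all arrays they reach down to -0.56 for KLF9. KLF7, 1 of the 4 members that did not overlap, was below detection on all 4 arrays, and without it and KLF4 3 of 5 did not overlap. KLF4, below detection on both ITGB4 arrays, had 0.58 in the authors' value table in place of -0.05. The ITGB4 replicate 2 column of that table was not a straight line of the scanner values, so these values may not rest on the same measurement.

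The 250 bases before the transcription start are shown for KLF9 and KLF13, which were called, and for KLF2, which had the next largest difference at 24 h against 6 h, to set the control regions of these genes side by side. The sequences are from RefSeq with the GRCh38.p14 build, read 5′ to 3′ on the strand of the gene, and capitals mark matches on either strand to the GC box with the letters GGGCGG, the element of the family with CACCC, the MEF2-type site with CTANNNNTA, the core of the CRE with TGACG, or the E-box with CACGTG, motifs that were chosen after the sequences had been seen.
KLF9, chr9:70414658-70414907, minus strand: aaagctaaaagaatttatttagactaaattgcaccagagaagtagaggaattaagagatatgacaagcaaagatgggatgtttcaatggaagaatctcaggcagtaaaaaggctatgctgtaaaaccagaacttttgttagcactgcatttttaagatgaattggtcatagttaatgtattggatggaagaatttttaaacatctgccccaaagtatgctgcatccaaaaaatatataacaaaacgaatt
KLF13, chr15:31326585-31326834, plus strand: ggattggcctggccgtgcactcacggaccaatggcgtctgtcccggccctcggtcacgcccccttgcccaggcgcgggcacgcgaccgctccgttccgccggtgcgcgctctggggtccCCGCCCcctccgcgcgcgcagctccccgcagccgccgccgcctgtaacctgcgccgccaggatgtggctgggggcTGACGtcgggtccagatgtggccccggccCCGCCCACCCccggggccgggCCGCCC
KLF2, chr19:16324576-16324825, plus strand: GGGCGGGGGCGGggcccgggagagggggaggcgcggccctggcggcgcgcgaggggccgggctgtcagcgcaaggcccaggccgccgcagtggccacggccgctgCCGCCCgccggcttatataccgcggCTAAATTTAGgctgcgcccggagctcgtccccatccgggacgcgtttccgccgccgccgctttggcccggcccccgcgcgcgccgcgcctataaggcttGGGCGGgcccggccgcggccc

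The KLF9 window was AT-rich, with 32.4% GC and 0 matches to all of these motifs. The KLF13 window had 78.8% GC with 3 GC boxes, 1 CACCC box that overlaps the end of a GC box and 1 CRE core, and the KLF2 window 80.0% GC with 4 GC boxes and 2 MEF2-type matches, which are the opposite strands of the same site. GC boxes occur in 42.6%, CACCC boxes in 54.7%, CRE cores in 21.2%, E-boxes in 6.34% and MEF2-type sites in 14.6% of the 35116 RefSeq windows of this length. No motif was found in all 3 windows, since the KLF9 window held none, which says only that these letters are not in that window. Of the members, 9 had at least 1 window in the table.

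The other Kruppel-like and SP factors, which bind the same or similar DNA elements, held no called gene. Of 15 listed, 14 were on the array and 8 were tested, and 0 of 8 were called in any of the 6 comparisons. The share of all probes called in these comparisons was 0% to 8.31%. KLF16, SP1, SP2 and SP3 were detected on all 10 arrays, at 142.9 to 372.1, whereas KLF1, KLF3, KLF8, KLF14, KLF17 and SP4 were detected on none. SP6 was detected on all 10 arrays by its tested probe (140 to 235) and on none by its other probe. The median difference of the 8 tested genes was 0.04 at 24 h against 6 h and -0.20 at 6 h against 1 h, against 0 and -0.01 over all probes.

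Among 19 cofactors and ubiquitin ligases of the family, 17 were tested, and at 24 h against 6 h 1 was called higher and 1 lower, 2 of 17 against 8.31% of all probes. SIN3A, the scaffold that KLF9 and KLF13 bind, read 321.7 and 445.7 in ITGB4 cells, and 322.3 and 406 in untreated cells, 402.3 and 446.3 at 1 h, 223.6 and 241.5 at 6 h, and 382.8 and 532.9 at 24 h of HGF. Its 2 arrays at 6 h were the lowest of all 10, as for KLF13. SIN3A was lower at 6 h than at 1 h (-0.87 ± 0.21, limma adjusted p = 0.035) and higher at 24 h than at 6 h (0.96 ± 0.21, 0.014). In the authors' value table both calls were lost (-1.03, limma adjusted p = 0.13, and 1.18, 0.067). The adjusted p rose above the threshold at 6 h against 1 h without any 1 of those 4 arrays (0.12 to 0.25), and at 24 h against 6 h without replicate 1 (0.083) or 2 (0.063) of HGF 6 h or replicate 2 of HGF 24 h (0.09).

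HDAC1, a deacetylase carried by SIN3A, moved the other way, with 825 and 1173.2 at 24 h against 1667.7 and 1652.4 at 6 h. Its difference was -0.75 ± 0.19 (limma adjusted p = 0.027). The call was lost without either 6 h array (-0.75 and -0.76) and without replicate 1 of HGF 24 h (-0.50). It was also lost with median centring (limma adjusted p = 0.053) and in the authors' value table (0.076).

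**Figure D4:**
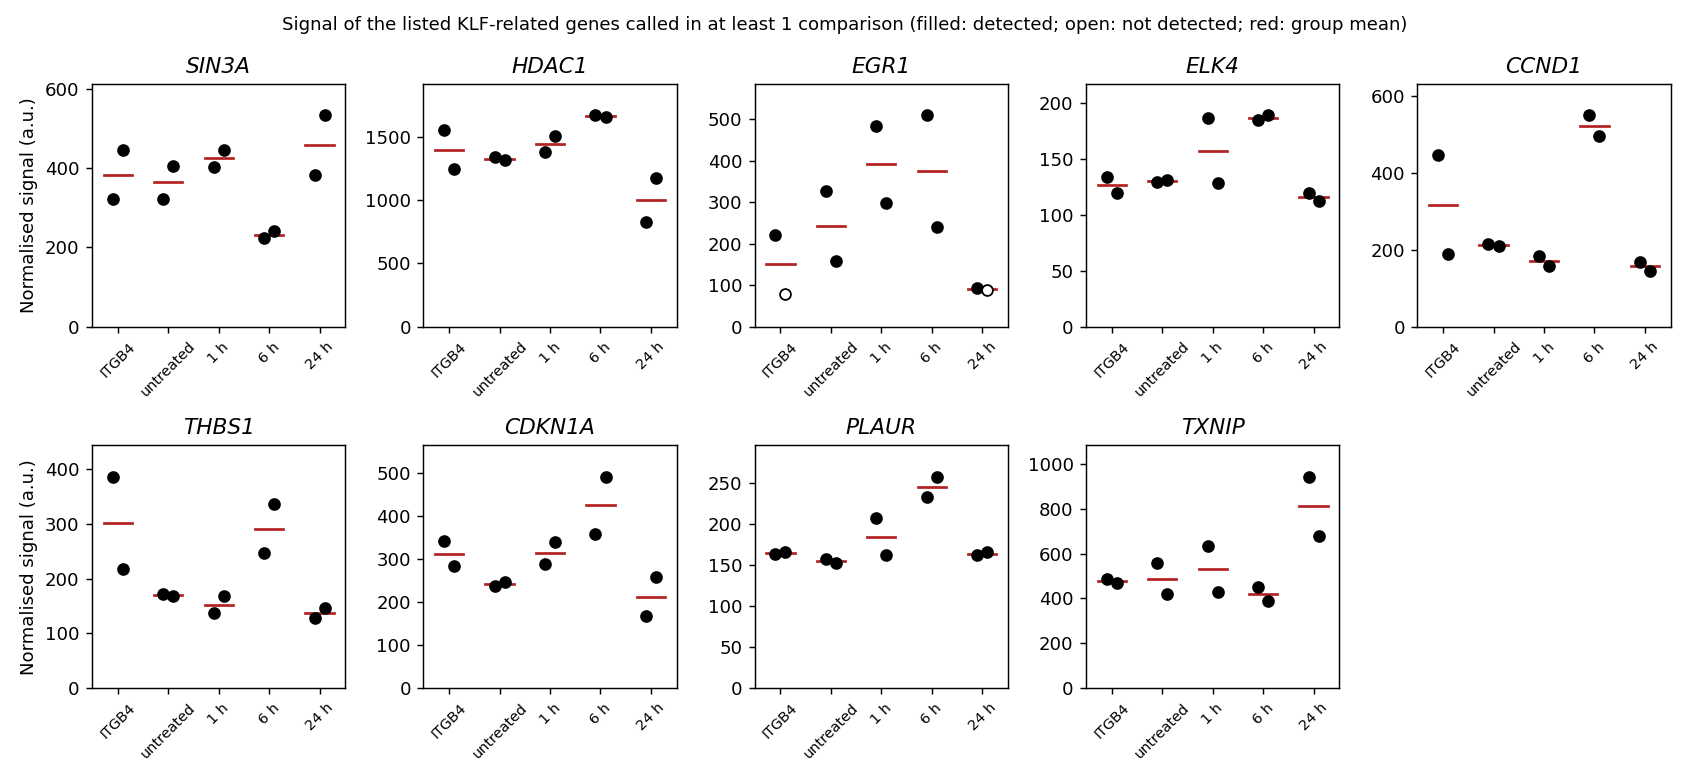
Normalised signal (vertical linear axes from 0, arbitrary units, scaled per gene) of the 9 called genes of the cofactor, upstream and target lists by group, with 1 point per array, filled where detected, and the group mean as a red bar. SIN3A was lowest at HGF 6 h (223.6 and 241.5), while CCND1 was highest there (550.2 and 497.3).

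Of 16 upstream regulators, 13 were tested, and 2 were called, both lower at 24 h than at 6 h, where 4.07% of all probes were called lower. EGR1, an immediate early zinc finger factor with GC-rich sites of its own, read 94.7 and 88.8 at 24 h, the second array below detection, against 509.9 and 240.6 at 6 h (-1.93 ± 0.46, limma adjusted p = 0.021). ELK4, a ternary complex factor downstream of ERK represented by a probe specific for 1 isoform, read 119.5 and 112.9 at 24 h against 184.8 and 189.2 at 6 h (-0.69 ± 0.18, 0.035), while its common probe was detected on 2 arrays only. The EGR1 call was lost without replicate 1 of HGF 6 h (0.15) or replicate 2 of HGF 24 h (0.065), and the ELK4 call without any 1 of the 6 h, 24 h or ITGB4 arrays (0.053 to 0.16, with a difference of -0.72 to -0.65) or with median centring (0.098).

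Of 25 genes described as targets of the family, 15 were tested, and at 24 h against 6 h 4 were called lower and 1 higher (4.07% and 4.24% of all probes), with a median of -0.07 over the list. CCND1, cyclin D1, read 445.8 and 188.8 in ITGB4 cells, and 216.4 and 209.9 in untreated cells, 184.4 and 157.1 at 1 h, 550.2 and 497.3 at 6 h, and 169.2 and 145.4 at 24 h of HGF. Both 6 h arrays were above all others, where those of KLF13 were below all others. CCND1 was higher at 6 h than in untreated cells (1.3 ± 0.29, limma adjusted p = 0.039) and than at 1 h (1.62 ± 0.29, 0.011), and lower at 24 h than at 6 h (-1.74 ± 0.29, 0.004). The last call held without any 1 array. The others were lost without either array of either group compared (1.22 to 1.37 against untreated cells and 1.51 to 1.72 against 1 h). The call against untreated cells was also lost without either 1 h array. It was lost as well in the authors' value table (limma adjusted p = 0.059) and with median centring (0.055).

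CDKN1A, the cyclin-dependent kinase inhibitor p21, read 166.5 and 257.8 at 24 h against 358.5 and 490.8 at 6 h (-1.02 ± 0.22, limma adjusted p = 0.014). THBS1, the matrix protein thrombospondin, read 129 and 147.4 at 24 h against 246.2 and 335.8 at 6 h (-1.06 ± 0.24, 0.018), and was higher at 6 h than at 1 h (0.92 ± 0.24, 0.049). PLAUR, the urokinase receptor, read 162.2 and 166.1 at 24 h against 233.7 and 257.9 at 6 h (-0.58 ± 0.16, 0.045). TXNIP, an inhibitor of thioredoxin, was the target that was higher at 24 h, with 942.4 and 678.7 against 450 and 390.1 at 6 h (0.93 ± 0.22, 0.021).

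Leaving out single arrays kept the direction of these differences, at -1.34 to -0.70 for CDKN1A, -1.29 to -0.84 for THBS1, -0.65 to -0.51 for PLAUR and 0.70 to 1.17 for TXNIP at 24 h against 6 h, and at 0.71 or more for THBS1 at 6 h against 1 h, but raised many adjusted p-values past the threshold. Without replicate 2 of HGF 6 h the adjusted p was 0.13 for CDKN1A, 0.15 for THBS1 and 0.14 for TXNIP at 24 h against 6 h, and without replicate 1 of HGF 24 h it was 0.078, 0.064 and 0.11 for the same genes. TXNIP was also lost without replicate 1 of HGF 6 h (0.059). The PLAUR call was lost without any 1 of the untreated, ITGB4, 6 h or 24 h arrays (0.063 to 0.24), and the THBS1 call at 6 h against 1 h without any 1 of the untreated, 1 h or 6 h arrays (0.056 to 0.42). Median centring ended the calls of PLAUR (0.17) and of THBS1 at 6 h against 1 h (0.063). The authors' value table ended the calls at 24 h against 6 h of CDKN1A (limma adjusted p = 0.11), THBS1 (0.06), PLAUR (0.063) and TXNIP (0.15). It also ended that of THBS1 at 6 h against 1 h (0.11).

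Of the markers of cell identity, 1 of 8 tested melanocyte and 1 of 5 tested epithelial genes were called at 24 h against 6 h. In this comparison 8.31% of all probes were called. The summed signal of the 8 melanocyte lineage genes was 20055 to 23162 at 24 h, against 17331 to 18307 at 6 h, and S100B among them was called higher (0.62, limma adjusted p = 0.027), while MLANA had -0.43 and EDNRB -0.08, neither called. The 8 epithelial markers on the array, 5 of them tested, summed to 928 to 1205, against 1229 to 1323, with ESRP1 called lower (-0.64, 0.031). This sum and those that follow take in genes on the array that were not detected. Fibroblast markers summed to 819 to 964, against 797 to 897, endothelial markers to 416 to 467, against 466 to 489, and leukocyte markers to 234 to 252, against 250 to 267, with 0 called in each of these lists. In the earlier steps S100B was lower (-0.63, limma adjusted p = 0.039) and ESRP1 higher (0.86, 0.014) at 6 h than at 1 h, where 4.67% of all probes were called. MITF was lower at 6 h than in untreated cells (-1.06, 0.036), where 1.9% of all probes were called. The part of these values in those of the Kruppel-like factors was not tested.

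Across the 10 arrays, the genes whose log2 signal followed KLF9 most closely were ZKSCAN1, a zinc finger gene (Pearson r = 0.969), CUL4B, a ubiquitin ligase scaffold (0.965), and RPL17, a ribosomal protein gene (0.947). For KLF13 they were HERC2, a ubiquitin ligase (0.954), ATXN2, an RNA-binding protein (0.939), and XPC, a DNA damage sensor (0.938). They were chosen for this likeness. Between members, r was highest for KLF2 with KLF13 (0.67) and lowest for KLF4 with KLF10 (-0.77), and KLF9 with KLF13 gave 0.61. KLF4 was below detection on 7 of the 10 arrays, and the lowest r between members detected on all arrays was that of KLF2 with KLF6 (-0.62). These values describe 10 arrays that share groups, normalisation and score classes.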

How the data were processed

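Total RNA of 10 samples, 2 per group, had been hybridised to 1 array each, and the labels gave the groups and replicate numbers. The intensities deposited by the authors are linear means of bead brightness from BeadStudio 1.5.1.3, as named in the submitters' processing notes. They were not normalised, with array medians of 74.9 to 96.9. Alongside them the authors deposited a score of detection between 0 and 1 and the number of beads per probe. The authors' value table, background subtracted and rank-invariant normalised, served as an alternative. In 9 of its 10 columns it was a straight line of the scanner values, and ITGB4 replicate 2 was not (largest residual 7749.51), so that the scanner version underlies the ITGB4 values.

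Of 24136 probes, 22 controls and 9 lacking a signal were left out. The remaining 24105 were named through the platform table (18758 with 1 symbol, 5356 with none), quantile normalised and log2 transformed, and 14018 (58.2%) with a score of 0.99 or more on at least 1 array were tested. One fit of the 5 group means in limma 3.58.1 (R 4.3.3) gave moderated two-sided tests of 6 contrasts, with 5 residual and 8.16 prior degrees of freedom. The number of arrays limits the precision. Scripts were tested on simulated data. A gene was named if it was a member, or a called gene of the family, cofactor, upstream or target lists, or among the 3 most like KLF9 or KLF13 by Pearson r. Genes of the lists with several probes were read from the brightest tested probe. Arrays were put in score classes by the 25th percentile of the detection score over all probes, a measure chosen after the data had been seen. Members and lists were chosen with earlier results of these data known. Alternatives covered the value table, background correction, centring, detection filter, floor, blocks, test and each array left out. The files name no genome build, and positions come from RefSeq alone.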

Additional observations from a re-analysis of the deposited data

Results flagged for a closer look

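For these genes the level differed between 2 HGF treatment times by a limma test of that difference itself, and no explanation was tested. The labels name no untreated cells matched to each time, so HGF and time in culture cannot be told apart. Between 24 h and 6 h the log2 difference was 0.94 for KLF9, 0.67 for KLF13, 0.96 for SIN3A and 0.93 for TXNIP. It was -1.93 for EGR1, -1.74 for CCND1, -1.06 for THBS1, -1.02 for CDKN1A, -0.75 for HDAC1, -0.69 for ELK4 and -0.58 for PLAUR. Between 6 h and 1 h it was -0.87 for SIN3A, 1.62 for CCND1 and 0.92 for THBS1. Groups of 2 arrays are too small for a test of single arrays that stand apart.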

How the results depend on the processing

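Of 786 refitted values of the 42 member differences, 747 kept their direction and their side of the threshold, 7 lost the call, 8 gained it and 24 changed sign, and the cause was not tested. Of 77 values within 1 score class, which have no test, 57 moved by less than the replicate spread and 20 by more, and 11 had the opposite sign. At 24 h against 6 h, 2 members were called (1165 of all probes), against 1 in the value table (483), 1 with an ordinary pooled-variance test (107) and 0 to 2 with each array left out in turn (308 probes without replicate 2 of HGF 6 h, 446 without replicate 1 of HGF 6 h). KLF9 had an adjusted p of 0.0015 to 0.097 and KLF13 of 0.0037 to 0.11 over the alternatives. At 6 h against 1 h, 0 members were called (654 of all probes), against 1 with detection required on both arrays of a group (896), 1 with floored signals (337), and 2 with the array score class as a block (1690). With the replicate number as a block, 2 were called at 6 h against 1 h (KLF4 -0.54, adjusted p = 0.024; KLF13 -0.52, 0.022), with 1871 probes in all, and KLF2 joined at 24 h against 6 h (0.52, 0.019), with 2245 probes. The block by replicate number differs from that by score class only in ITGB4 replicate 1. Replicate differences of the groups correlated at -0.06 to 0.66, over 0.1 in 8 of the 10 pairs of groups (0.65 for 6 h with 24 h, 0.37 for 1 h with 6 h). Since not all pairs did and the labels name no shared batch, the numbers were not taken to pair the samples. Over all probes, calls at 6 h against 1 h fell to 33 in the value table and 0 with the ordinary test and ran from 0 to 1062 with 1 array left out. At 1 h against untreated cells they were 0, against 427 with the replicate number as a block (16.4% higher) and 36 without replicate 1 of HGF 24 h. At 6 h against untreated cells they were 267, against 18, 0 and 0 to 509 under the same settings, and 1066 with the score class as a block. Median centring moved the share of higher calls to 23%, against 48%, at 6 h against 1 h, and to 17.1%, against 50.9%, at 6 h against untreated cells. The value table moved the median of all probes to 0.11 at 1 h and 0.17 at 6 h against untreated cells and to 0.11 at 6 h against 1 h.

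Changes of sign were all in differences past no threshold. The value table gave KLF4 0.58 for ITGB4, and KLF7 0.55 and KLF10 0.03 at 24 h, against untreated cells. Its column for ITGB4 replicate 2 was not a straight line of the scanner values. Median centring gave KLF6 -0.14 at 6 h, floored signals gave KLF4 -0.04 and KLF7 0.04 at 24 h, and the score class block gave KLF2 0.03 for ITGB4, all against untreated cells. With 1 array left out, values against untreated cells ran at 1 h from -0.14 to 0.31 for KLF2, -0.23 to 0.02 for KLF6, -0.46 to 0 for KLF7 and -0.24 to 0.05 for KLF10 (0.03 without untreated replicate 1). They ran at 24 h from -0.13 to 0.19 for KLF4, -0.26 to 0.40 for KLF7 (0.19 without untreated replicate 1) and -0.15 to 0.09 for KLF10, and for ITGB4 from -0.31 to 0.14 for KLF2, -0.21 to 0.11 for KLF4 and -0.18 to 0.06 for KLF10 (0.01 without ITGB4 replicate 2). At 6 h against 1 h they ran from -0.28 to 0.21 for KLF7 (0.13 without HGF 1 h replicate 1) and -0.35 to 0.02 for KLF9, and at 24 h against 6 h from -0.02 to 0.66 for KLF7. KLF9 and KLF13 at 24 h against 6 h stayed above 0 throughout. Of 273 values of the 13 list calls, 180 kept the call and 91 lost it, with 0 changes of sign, and the ordinary pooled-variance test ended each of the 13. KLF4, KLF7 and the undetected members lie at the detection limit, where signals have no clear order.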
